A study of Mus musculus with 2 samples.

Results

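The effector cytokine genes Il4, Il13, Il17a, Il17f, Ifng, Csf2, Il2, Il6 and Il10 were followed across the cells of 2 mouse liver libraries. They were found by exact gene symbol, and all 9 were present among the 27998 genes listed, of which 18964 had at least 1 UMI (unique molecular identifier, 1 per captured transcript). The libraries held liver non-parenchymal cells, which are the immune, endothelial and stromal cells left after hepatocytes are removed, here by perfusion and density centrifugation. One library came from the PKM2ΔMAC genotype (ΔMAC) and the other from the PKM2FL/FL genotype (FL/FL), both after 8 weeks on an MCD diet, a feed without methionine and choline that gives mice steatohepatitis. PKM2 is a splice form of the pyruvate kinase gene Pkm, and both genotypes carry the floxed allele. The Cre driver behind the deletion, the number of mice pooled into each library and their age and sex were not stated in the sources used here. With 1 library per genotype no difference between genotypes could be tested, and every interval covers counting error only, with UMIs treated as independent of each other.

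These cytokines are the short-range signals with which lymphocytes and myeloid cells direct each other. Interferon gamma, encoded by Ifng, activates macrophages and marks type 1 responses, interleukins 4 and 13 mark type 2 responses, and interleukins 17A and 17F act on stromal and epithelial cells to recruit neutrophils. Granulocyte-macrophage colony-stimulating factor (Csf2) and interleukin 2 sustain myeloid cells and T cells, interleukin 6 drives acute-phase responses, and interleukin 10 restrains inflammation. The liver is rich in innate-like lymphocytes, such as natural killer (NK) cells, type 1 innate lymphoid cells (ILC1), natural killer T (NKT) cells and gamma delta T cells, that hold cytokine transcripts ready for rapid use.

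After filtering, 8549 ΔMAC cells with 40446693 UMIs and 9510 FL/FL cells with 49851626 UMIs were analysed, with medians of 3716 and 4384 UMIs per cell. Between the libraries 17 deposited barcodes were shared. Cells were assigned to 23 classes from detected marker genes, none of them a cytokine followed here, and 93.9% of ΔMAC cells and 93.7% of FL/FL cells received a class. Pkm, the targeted gene, stood at 324 UMIs per 1000000 (CPM) in ΔMAC and 585 CPM in FL/FL monocyte or macrophage-like cells, and at 125 CPM in ΔMAC and 445 CPM in FL/FL Kupffer-like cells. It was also lower outside macrophages, with 334 CPM in ΔMAC and 691 CPM in FL/FL neutrophil-like cells, a ratio of 0.483, and 107 CPM in ΔMAC and 144 CPM in FL/FL B-like cells. The 3′ tags do not separate its splice forms and may lie outside the deleted part.

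Over all cells, Il17a was the member furthest above its FL/FL level and Il4 and Il10 were the members below it by more than 2-fold. Il17a had 1210 UMIs in ΔMAC and 769 in FL/FL, a CPM ratio of ΔMAC over FL/FL of 1.94 with an exact 95% interval of 1.77 to 2.13. Its positive cells numbered 98 in ΔMAC and 86 in FL/FL, a ratio of shares of 1.27 (0.939 to 1.71) that spans 1. The 2 highest ΔMAC cells held 168 and 159 of the UMIs. Il4 had 110 UMIs in ΔMAC and 379 in FL/FL, a ratio of 0.358 (0.287 to 0.443). Il10 had 45 UMIs in ΔMAC and 161 in FL/FL, a ratio of 0.344 (0.242 to 0.482). No member was at least 2-fold higher and 2 of 9 were at least 2-fold lower, whereas 2.83% of the 14329 genes with at least 20 UMIs were 2-fold higher and 2.16% were 2-fold lower.

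The other members lay nearer to equality over all cells. Il17f had a ratio of 1.51 (1.14 to 2.01), Il13 of 1.05 (0.757 to 1.47), Csf2 of 0.908 (0.785 to 1.05) and Ifng of 0.87 (0.845 to 0.896). Il6 had a ratio of 0.808 (0.702 to 0.93) and Il2 of 0.751 (0.6 to 0.938). At least 1 of the 9 transcripts was detected in a minority of cells, since 6579 ΔMAC cells (77.0%) and 6377 FL/FL cells (67.1%) had none. Cells with 2 members numbered 187 in ΔMAC and 366 in FL/FL.

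**Figure D1:**
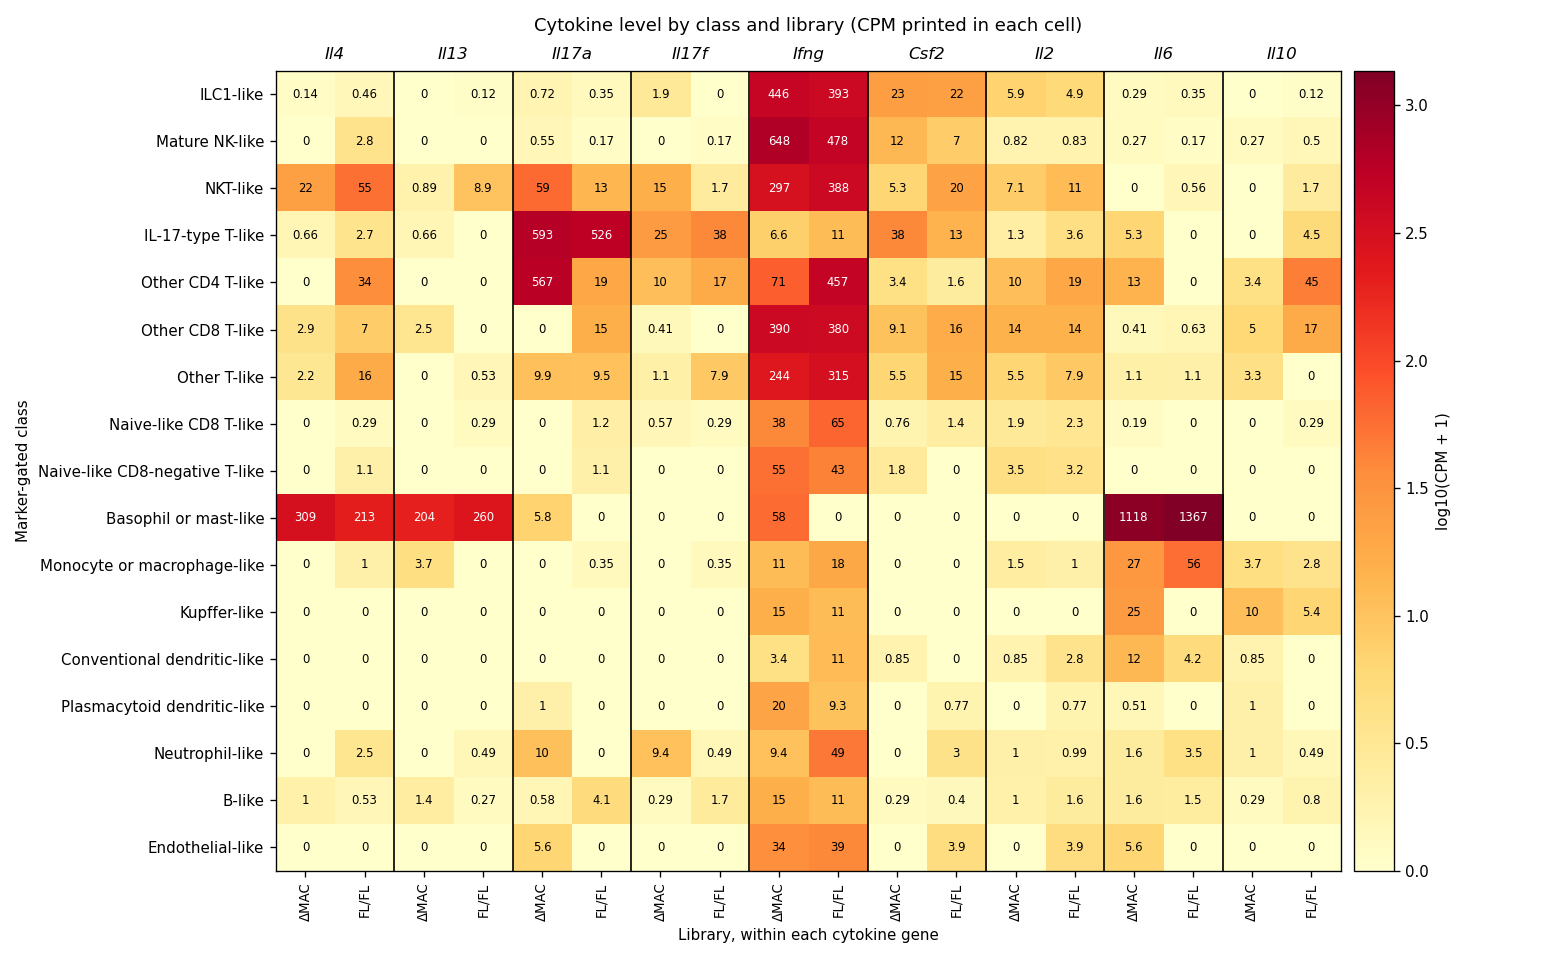
Level of each cytokine in CPM for classes of 50 or more cells per library and for basophil or mast-like cells, with the ΔMAC column left of the FL/FL column and colour on a log10(CPM + 1) scale. Ifng fills the ILC1-like, mature NK-like and T-like rows, Il17a the row of IL-17-type T-like cells at 593 CPM in ΔMAC and 526 CPM in FL/FL, and Il4, Il13 and Il6 the basophil or mast-like row.

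Few classes held most of each transcript. Over both libraries, IL-17-type T-like cells, a class gated on markers that include Cd163l1, Il23r, Blk, Sox13 and Il17re, held 75.1% of Il17a UMIs and 39.1% of Il17f UMIs. Basophil or mast-like cells held 51.3% of Il13 and 50.3% of Il6. ILC1-like cells held 34.6% of Ifng, 45.9% of Csf2 and 24% of Il2. NKT-like cells held 45.6% of Il4, and CD8 T-like cells outside the naive-like class held 31.6% of Il10.

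**Figure D2:**
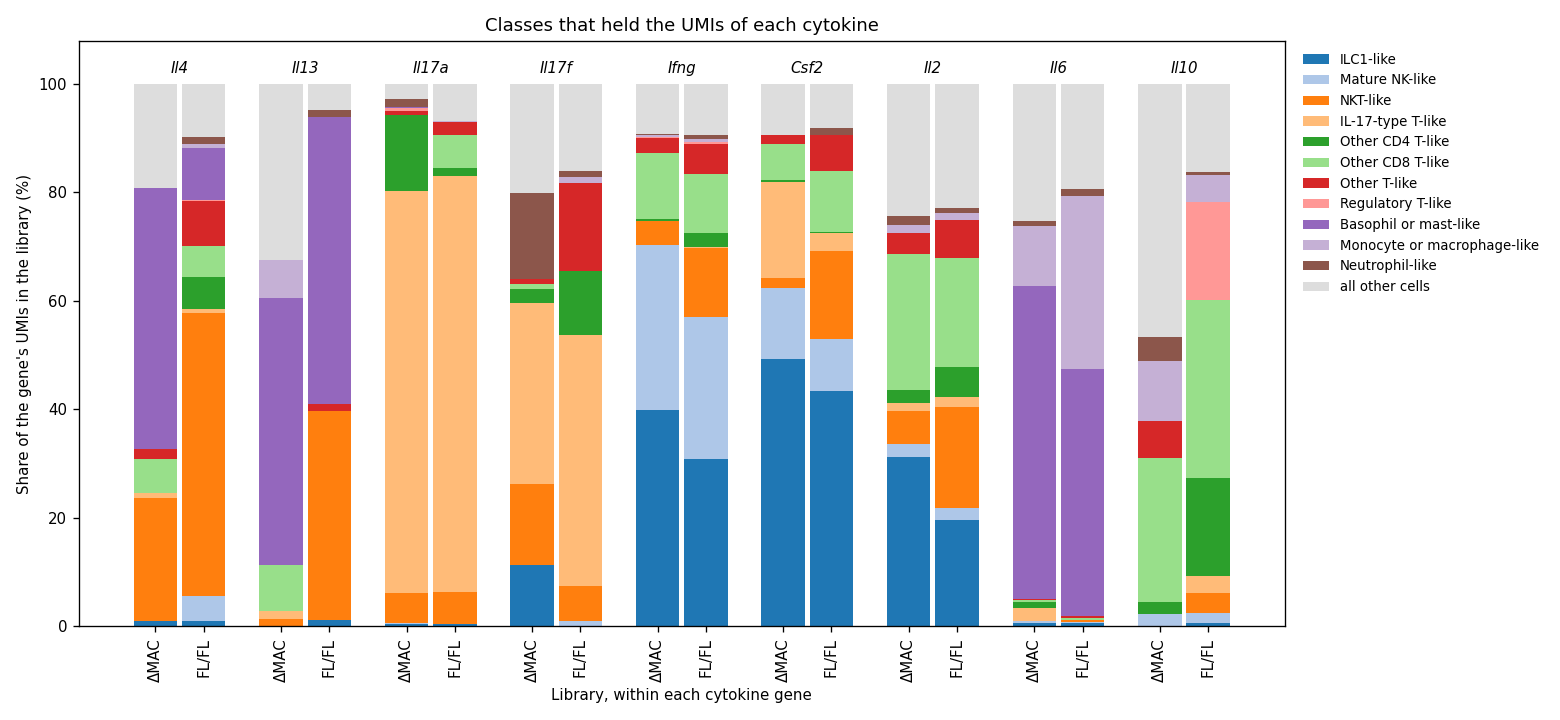
Share of each cytokine's UMIs, in percent, held by each class in each library, with the ΔMAC bar left of the FL/FL bar. For Il4 the basophil or mast-like part was 48.2% in ΔMAC and 9.5% in FL/FL, and the NKT-like part was 22.7% in ΔMAC and 52.2% in FL/FL.

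Ifng, the signature cytokine of type 1 lymphocytes, was detected in 1639 ΔMAC cells and 2681 FL/FL cells. Its gene lies at chr10:118441046-118445892 on the plus strand of GRCm38 (mm10), with 4 exons. In mature NK-like cells it had 2357 UMIs in ΔMAC and 2879 in FL/FL, or 648 CPM (622 to 675) against 478 CPM (460 to 495). The ratio was 1.36 (1.28 to 1.43), although the share of positive cells was 55.1% (407 of 739) in ΔMAC and 57.6% (663 of 1152) in FL/FL. In these cells the median of the positive cells was 3 UMIs in ΔMAC and 2 in FL/FL, and the ratio stayed between 1.24 and 1.39 under all 10 other settings tried.

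ILC1-like cells, liver-resident relatives of NK cells, had 3096 Ifng UMIs in ΔMAC and 3393 in FL/FL, a ratio of 1.13 (1.08 to 1.19). Their positive shares were 52.5% (648 of 1235) in ΔMAC and 56.6% (818 of 1445) in FL/FL. In CD8 T-like cells outside the naive-like class Ifng stood at 390 CPM in ΔMAC and 380 CPM in FL/FL, a ratio of 1.03 (0.941 to 1.118), with 38.2% positive cells in ΔMAC and 51.4% in FL/FL. Thinned to 1500 UMIs per cell, the positive share was 39.3% in ΔMAC and 35.7% in FL/FL for mature NK-like cells, 32.9% in ΔMAC and 34.0% in FL/FL for ILC1-like cells, and 23.6% in ΔMAC and 28.4% in FL/FL for these CD8 T-like cells. Of the latter, 56.1% in ΔMAC and 25.1% in FL/FL lay in the graph cluster of naive-like CD8 T-like cells. Ifng was detected in 77 of 664 ΔMAC and 70 of 450 FL/FL naive-like CD8 T-like cells. The part of this make-up in the Ifng values was not tested.

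In NKT-like and other CD4 T-like cells as gated, Ifng was lower in ΔMAC than in FL/FL. In both the direction turned when the set of cells standing for the class changed. NKT-like cells, gated on Zbtb16, Klrb1c, Cxcr6, Izumo1r and Cd40lg, had 336 UMIs in ΔMAC and 1391 in FL/FL, a ratio of 0.768 (0.679 to 0.865). Their positive share was 33.8% (66 of 195) in ΔMAC and 50.9% (287 of 564) in FL/FL. Without the NKT-like cells that clustered with IL-17-type T-like cells the ratio was 1.08, and with graph clusters in place of the gate it was 1.12. The other CD4 T-like cells had 21 UMIs in ΔMAC and 294 in FL/FL, or 70.8 CPM against 457 CPM, a ratio of 0.155 (0.0945 to 0.241). Where graph clusters replaced the gate, the ratio for the cluster named after the CD4 class was 1.03, with 206 UMIs in ΔMAC and 481 in FL/FL. Both clusters held mostly other cells: 448 of 1491 were NKT-like as gated, and 129 of 445 were other CD4 T-like.

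B-like cells, which do not normally transcribe Ifng, gave the background for its share of positive cells. It was 2.36% in ΔMAC and 3.49% in FL/FL, at median depths of 2728 and 3160 UMIs, against median depths between 4278 and 5879 UMIs in the NK-like, ILC1-like and NKT-like classes. Neutrophil-like cells had 18 Ifng UMIs in 16 of 720 ΔMAC cells (2.22%) and 99 UMIs in 48 of 774 FL/FL cells (6.20%), a ratio of 0.193 (0.11 to 0.321) at median depths of 2366 and 2192 UMIs. The ΔMAC share of neutrophil-like cells was thus no higher than that of B-like cells. With called doublets kept, the ratio in neutrophil-like cells was 0.549. All genes of this class had a median log2 ratio of -0.37, and 12.2% of its 7554 genes were at least 2-fold lower.

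The order of Ifng levels differed between the libraries. In ΔMAC it ran from mature NK-like through ILC1-like and the other CD8 T-like to NKT-like cells, each interval clear of the next. In FL/FL the order was mature NK-like, other CD4 T-like, ILC1-like, NKT-like and other CD8 T-like, and every interval overlapped that of its neighbour.

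Csf2, which encodes a growth and survival factor for myeloid cells, lies at chr11:54247271-54249667 on the minus strand, with 15.6 kb to its neighbour Il3. ILC1-like cells had 161 Csf2 UMIs in ΔMAC and 193 in FL/FL, or 23.2 CPM against 22.4 CPM, a ratio of 1.04 (0.836 to 1.28), which was 0.797 with graph clusters. Positive cells were 62 of 1235 (5.02%) in ΔMAC and 68 of 1445 (4.71%) in FL/FL, and B-like cells were at 0.0826% in ΔMAC and 0.138% in FL/FL. Of the ILC1-like cells with Csf2, 66.1% in ΔMAC and 63.2% in FL/FL also had Ifng.

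Csf2 was higher in ΔMAC in one T-like class and lower in another. IL-17-type T-like cells had 58 UMIs in ΔMAC and 15 in FL/FL, or 38.3 CPM (29.1 to 49.5) against 13.4 CPM (7.49 to 22.1), a ratio of 2.86 (1.6 to 5.44). The positive shares there were 7.75% (20 of 258) in ΔMAC and 5.88% (11 of 187) in FL/FL, with B-like cells as given above. The 3 highest cells had 13, 12 and 12 UMIs in ΔMAC and 3, 3 and 1 UMIs in FL/FL. Across the other settings the ratio lay between 2.35 and 7.64, the highest value coming from thinned cells. NKT-like cells had 6 UMIs in ΔMAC and 72 in FL/FL, a ratio of 0.265 (0.0941 to 0.605). It became 1.08 under a gate with 1 more marker and 0.972 with the mixed graph cluster given for Ifng. Of the 4 members with at least 20 UMIs in IL-17-type T-like cells, 1 was at least 2-fold higher and 0 were lower, beside 2.05% and 3.83% of the 8231 genes measured there.

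Il2, a T cell growth factor, was sparse in every class. Its gene spans chr3:37120523-37125959 on the minus strand, 96.8 kb from Il21. ILC1-like cells had 41 UMIs in ΔMAC and 42 in FL/FL, a ratio of 1.21 (0.769 to 1.91) that was 0.72 in thinned cells, with 37 of 1235 (3%) positive cells in ΔMAC and 35 of 1445 (2.42%) in FL/FL. The other CD8 T-like cells had 13.7 CPM in ΔMAC and 13.6 CPM in FL/FL. In both libraries the intervals of the top 5 classes for Il2 overlapped from each class to the next, and B-like cells were positive at 0.289% in ΔMAC and 0.551% in FL/FL.

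In ILC1-like and mature NK-like cells 0 members were at least 2-fold apart, of 3 and 2 with at least 20 UMIs, beside 3.46% of 10695 genes and 3.37% of 10045 genes.

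**Figure D3:**
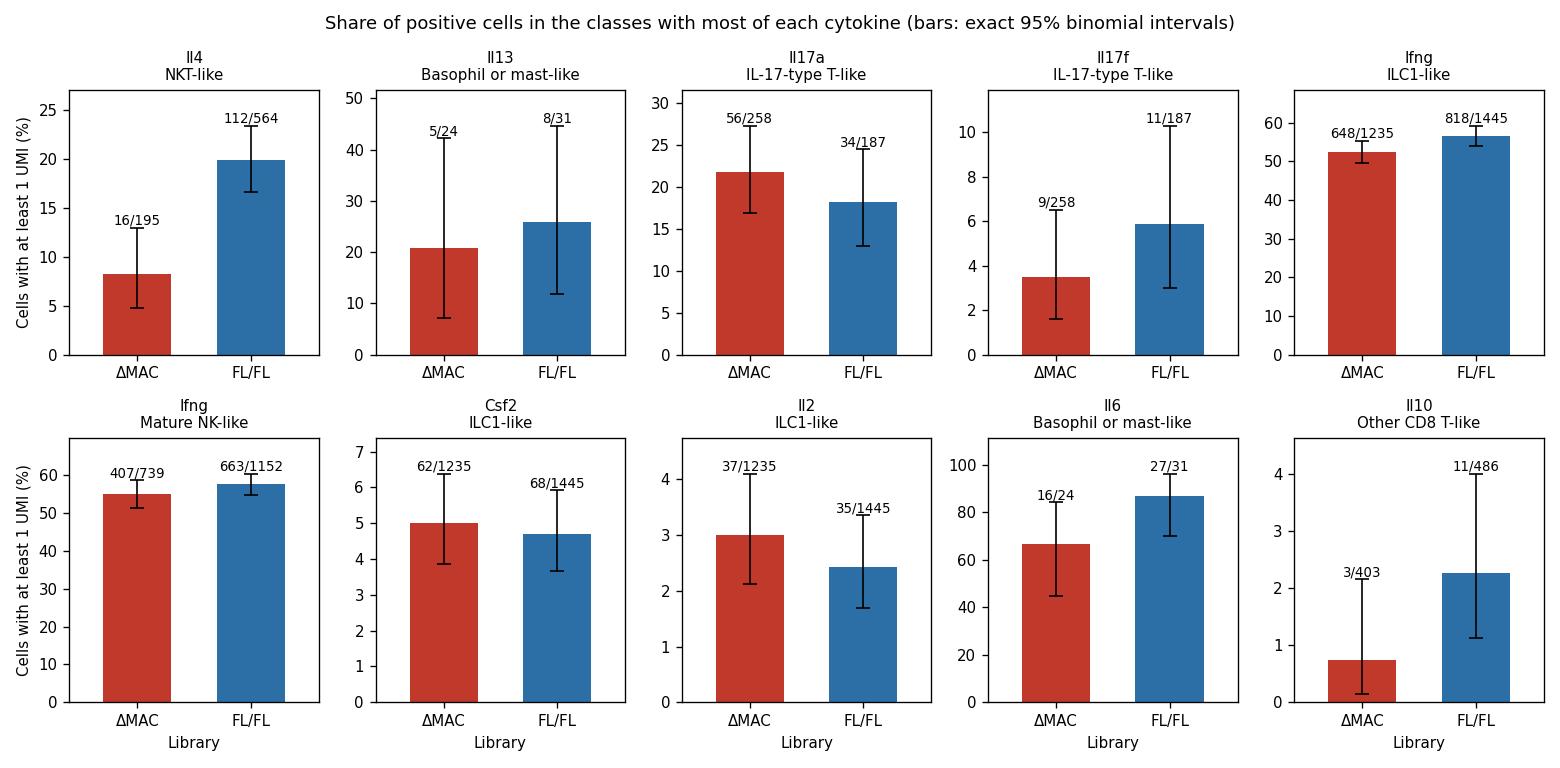
Percent of cells with at least 1 UMI in the classes that held most of each cytokine, with exact 95% binomial intervals, positive cells over all cells printed above, and the ΔMAC bar left of the FL/FL bar. The intervals of the 2 libraries are apart for Il4 in NKT-like cells, at 8.21% in ΔMAC and 19.9% in FL/FL, and overlap in the other panels.

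Il17a and Il17f are neighbours on chromosome 1, at chr1:20730905-20734496 (plus strand, 3 exons) and chr1:20777146-20790617 (minus strand, up to 5 exons), 42.6 kb apart. Their proteins form homodimers and a shared heterodimer that signals through the receptor pair Il17ra and Il17rc. The 250 bases upstream of each start site are shown because the pair share their main class, and both come from RefSeq on GRCm38.p6. The RefSeq start used for Il17f lies inside the gene span given above, so the Il17f region shown falls within that span. Capitals mark matches on either strand to GGAAA (core of NFAT sites), TGANTCA (AP-1), TGACGT (part of a cyclic AMP response element) and TATAAA.

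Il17a, chr1:20730655-20730904, plus strand: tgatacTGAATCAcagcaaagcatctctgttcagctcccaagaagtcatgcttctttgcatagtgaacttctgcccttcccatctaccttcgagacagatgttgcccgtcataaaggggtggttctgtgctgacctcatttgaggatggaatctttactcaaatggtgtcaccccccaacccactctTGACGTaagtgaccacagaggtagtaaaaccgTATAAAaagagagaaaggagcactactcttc
Il17f, chr1:20784271-20784520, minus strand: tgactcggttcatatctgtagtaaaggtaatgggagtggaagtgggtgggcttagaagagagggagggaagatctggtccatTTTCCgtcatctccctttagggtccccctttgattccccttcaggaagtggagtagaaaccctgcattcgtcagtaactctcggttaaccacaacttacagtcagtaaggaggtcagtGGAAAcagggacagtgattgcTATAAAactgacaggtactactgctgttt

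Both strands were searched, also for AGATAA, the core of sites of the zinc finger factor Gata3 and its relatives, held by 9.99% of windows, with no match in the regions shown here. Each of the upstream regions of Il17a and Il17f held 1 match to TATAAA, which 12.4% of all 32851 promoter windows of that length held. The Il17a region also held 1 match to TGANTCA (6.75% of windows) and 1 to TGACGT (6.47%), and the Il17f region 2 to GGAAA (55.6% of windows hold at least 1). These are matches of letters only.

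Il17a transcripts were concentrated in few cells with many UMIs each. IL-17-type T-like cells had 898 UMIs in ΔMAC and 589 in FL/FL, or 593 CPM (555 to 633) against 526 CPM (484 to 570). The ratio of 1.13 (1.02 to 1.255) was 0.716 under a gate with 1 more marker and 0.887 as a mean of single-cell CPM. Positive cells were 56 of 258 (21.7%) in ΔMAC and 34 of 187 (18.2%) in FL/FL, with overlapping intervals, and B-like cells were at 0.165% in ΔMAC and 0.505% in FL/FL. The 3 highest cells had 168, 84 and 62 UMIs in ΔMAC and 64, 61 and 56 UMIs in FL/FL, while the medians of positive cells were 8 and 11 UMIs.

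More such cells were captured in ΔMAC. IL-17-type T-like cells were 3.02% of ΔMAC cells and 1.97% of FL/FL cells, a ratio of shares of 1.53, and their share of all UMIs had a ratio of 1.66. In summed UMIs the class thus contributed 1.88 times its FL/FL amount of Il17a, per UMI sequenced. A change in cell number and a change in the yield of these cells cannot be told apart with 1 library each.

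In the other CD4 and CD8 T-like cells most Il17a UMIs lay in 1 cell. The other CD4 T-like cells had 168 UMIs in ΔMAC and 12 in FL/FL, a ratio of 30.4, but 159 of the 168 lay in 1 cell, and 3 cells were positive in each library. Without the highest cell of each library, 9 UMIs remained in ΔMAC and 5 in FL/FL. The other CD8 T-like cells had 0 UMIs in 403 ΔMAC cells, which at the floor of 3 counts allows a share of cells with a UMI of up to 0.744%, and 47 UMIs in 8 of 486 FL/FL cells (1.65%), with 32 in 1 cell.

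NKT-like cells had 67 Il17a UMIs in ΔMAC and 45 in FL/FL, or 59.3 CPM against 12.5 CPM, a ratio of 4.73 (3.2 to 7.06). Positive cells were 12 of 195 (6.15%) in ΔMAC and 12 of 564 (2.13%) in FL/FL. The class had an unequal make-up: 82 of the ΔMAC cells (42.1%) and 84 of the FL/FL cells (14.9%) lay in the graph cluster that also held 96.1% of ΔMAC and 95.2% of FL/FL IL-17-type T-like cells. The cluster with most other NKT-like cells held 74 (37.9%) in ΔMAC and 374 (66.3%) in FL/FL. Without the cells of the first cluster, 25 Il17a UMIs in 2 ΔMAC cells and 4 UMIs in 4 FL/FL cells remained. With graph clusters in place of the gate the class held 3 UMIs in ΔMAC and 4 in FL/FL, and the ratio of positive shares was 0.701.

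Il17f was found in few cells of the same class. IL-17-type T-like cells had 38 UMIs in ΔMAC and 43 in FL/FL, a ratio of 0.654 (0.412 to 1.04) that was 1.31 with graph clusters, in 9 of 258 cells (3.49%) and 11 of 187 cells (5.88%), beside 0.0826% and 0.0919% of B-like cells. Of the Il17f-positive cells in this class, 5 of 9 in ΔMAC and 6 of 11 in FL/FL also held Il17a. NKT-like cells had 17 UMIs in 7 ΔMAC cells and 6 UMIs in 3 FL/FL cells, a ratio of 9 (3.39 to 27.9). Of the 6 FL/FL UMIs 4 lay in 1 cell. The unequal make-up given above for Il17a applies here too, with 42.1% of ΔMAC and 14.9% of FL/FL NKT-like cells in the IL-17-type cluster. The highest single Il17f value in ΔMAC, 16 UMIs, was in a neutrophil-like cell, and 1 ILC1-like and 1 plasma-like ΔMAC cell had 13 UMIs each.

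**Figure D4:**
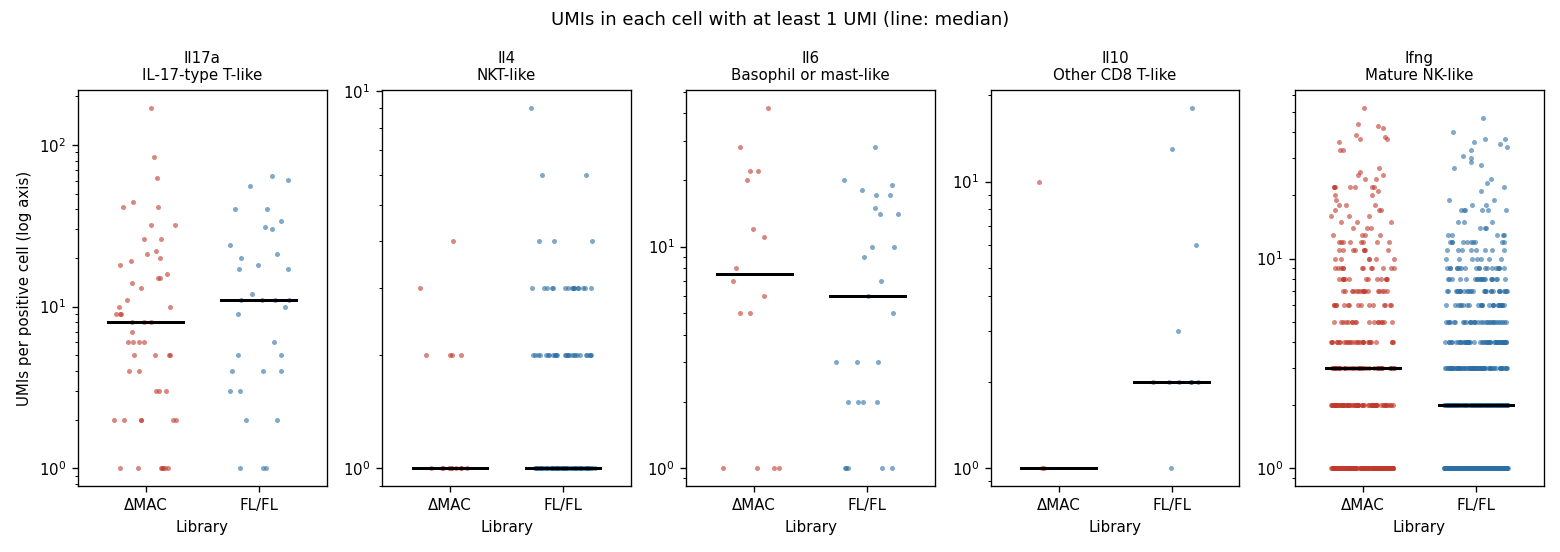
UMIs in every positive cell (log axis) of 5 cytokine and class pairs, with the ΔMAC points left of the FL/FL points and a line at the median. Il17a in IL-17-type T-like cells reached 168 UMIs in a ΔMAC cell and 64 in a FL/FL cell, whereas Il4 in NKT-like cells had a median of 1 UMI in both libraries.

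Il4 and Il13 lie in the type 2 cytokine locus on chromosome 11, at chr11:53602982-53618669 and chr11:53631324-53634702, both on the minus strand with 4 exons and 12.7 kb apart. Both act through the receptor chain Il4ra, and NKT cells and basophils are known early sources of interleukin 4. The upstream region of Il4 is shown beside that of Il6 because basophil or mast-like cells carried both transcripts. The marked motifs are those above, with a consensus NF-kB motif and TTGNGCAA (C/EBP) added.

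Il4, chr11:53618666-53618915, minus strand: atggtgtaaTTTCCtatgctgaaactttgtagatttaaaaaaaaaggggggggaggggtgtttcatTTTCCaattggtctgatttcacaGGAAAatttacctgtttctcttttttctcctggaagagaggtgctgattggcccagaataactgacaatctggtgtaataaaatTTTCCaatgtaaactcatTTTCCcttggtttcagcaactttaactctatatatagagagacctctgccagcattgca
Il6, chr5:30012864-30013113, plus strand: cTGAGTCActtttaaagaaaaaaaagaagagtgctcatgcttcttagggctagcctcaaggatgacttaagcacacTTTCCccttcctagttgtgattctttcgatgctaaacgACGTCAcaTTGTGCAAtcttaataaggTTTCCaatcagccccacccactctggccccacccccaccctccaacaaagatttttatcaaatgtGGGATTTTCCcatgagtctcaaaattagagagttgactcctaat

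The Il4 region held 5 matches to GGAAA and none to the other motifs searched, and a second RefSeq start of Il4, with its region at chr11:53617339-53617588, held 0 matches to any of them. The Il6 region held 3 matches to GGAAA, of which 1 overlaps a match to the NF-kB motif, and 1 match each to the AP-1, cyclic AMP response and C/EBP letters. The NF-kB motif was present in 0.356% and the C/EBP motif in 2.61% of the 32851 windows. Factors of the NF-kB and C/EBP families are textbook regulators of Il6, and the matches are a description of these letters.

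Il4 was more than 2-fold lower in ΔMAC NKT-like cells than in FL/FL ones. The class had 25 UMIs in ΔMAC and 198 in FL/FL, or 22.1 CPM (14.3 to 32.7) against 55.2 CPM (47.7 to 63.4), a ratio of 0.401 (0.253 to 0.61). Positive cells were 16 of 195 (8.21%, 4.76 to 13) in ΔMAC and 112 of 564 (19.9%, 16.6 to 23.4) in FL/FL, at median depths of 5486 and 5879 UMIs. Thinned to 1500 UMIs, the shares were 3.70% in ΔMAC and 6.56% in FL/FL. B-like cells were positive at 0.124% in ΔMAC and 0.184% in FL/FL.

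Fewer NKT-like cells were captured as well, 2.28% of ΔMAC cells against 5.93% of FL/FL cells. The unequal make-up of the class, described above for Il17a, moved the Il4 value: without the cells in the IL-17-type cluster the ratio was 0.506, from 22 UMIs in 113 ΔMAC cells and 197 UMIs in 480 FL/FL cells. Across the settings tried the ratio ran between 0.255 with graph clusters, where NKT-like cells were 448 of 1491, and 0.584 in thinned cells. Of the 112 Il4-positive NKT-like cells of FL/FL, 67.9% also had Ifng, against 46.7% of the Il4-negative ones. In ΔMAC 37.5% of the 16 positive cells had Ifng, against 33.5% of the negative ones. Median depths were 6670.5 UMIs in Il4-positive and 5654 in Il4-negative cells of FL/FL, and 5412 and 5486 in those of ΔMAC. The part of depth and of the make-up of the class in these shares was not tested.

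In the NKT-like class as a whole, 7 members had at least 20 UMIs. Il17a and Il17f were at least 2-fold higher and Il4, Il13 and Csf2 at least 2-fold lower, beside 2.87% and 5.18% of 9260 genes. Il13 had 1 UMI in ΔMAC and 32 UMIs in 10 FL/FL cells.

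Other T-like classes gave Il4 values in the same direction from few cells. The remaining T-like cells, which had no Cd4, Cd8a or Cd8b1 UMI and too few markers for a T subset, had 2 UMIs in ΔMAC and 31 in 19 FL/FL cells, a ratio of 0.134 (0.0155 to 0.526). The other CD4 T-like cells had 0 UMIs in 63 ΔMAC cells, which at the 3-count floor allows a share of up to 4.76%, and 22 UMIs in 5 of 132 FL/FL cells, of which 16 lay in 1 cell.

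Basophil or mast-like cells, 24 in ΔMAC and 31 in FL/FL, were led by Prss34 and Mcpt8, which are basophil proteases. Il4 there had 53 UMIs in ΔMAC and 36 in FL/FL, a ratio of 1.45 (0.931 to 2.28), with 13 positive cells (54.2%) in ΔMAC and 18 (58.1%) in FL/FL. One ΔMAC cell held 23 of the 53 UMIs. Il13 had 35 UMIs in 5 ΔMAC cells and 44 UMIs in 8 FL/FL cells, a ratio of 0.783 (0.487 to 1.248) that was 1.57 with graph clusters, and 1 cell held 24 of the ΔMAC and 1 held 25 of the FL/FL UMIs. B-like cells were Il13-positive at 0.0826% in ΔMAC and 0.0919% in FL/FL.

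Il6, an acute-phase cytokine made by many cell types, had its highest level in the same basophil or mast-like cells. Its gene lies at chr5:30013114-30019981 on the plus strand. There were 192 UMIs in ΔMAC and 231 in FL/FL, or 1118 CPM (965 to 1288) against 1367 CPM (1196 to 1555), a ratio of 0.818 (0.672 to 0.995). The direction turned under 4 settings, with ratios of 1.06 with graph clusters, 1.0985 under a gate with 1 more marker, 1.13 as a mean of single-cell CPM and 1.07 as UMIs per cell. Positive cells were 16 of 24 (66.7%) in ΔMAC and 27 of 31 (87.1%) in FL/FL, and naive-like CD8 T-like cells, taken as background, were at 0.151% in ΔMAC and 0 of 450 in FL/FL, which at the 3-count floor allows up to 0.667%. Their median depths were 7383 and 6794 UMIs, and those of the basophil or mast-like cells 5167 and 4891 UMIs. Il4 was also present in 9 of the 16 Il6-positive ΔMAC cells and in 16 of the 27 Il6-positive FL/FL cells. Of the 3 members measured in this class 0 were 2-fold apart, beside 19.2% of 2563 genes.

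Monocyte or macrophage-like cells formed the second Il6 source. They had 37 UMIs in ΔMAC and 162 in FL/FL, or 27 CPM (19 to 37.3) against 56.3 CPM (48 to 65.7), a ratio of 0.48 (0.326 to 0.69). Positive cells were 19 of 184 (10.3%) in ΔMAC and 52 of 333 (15.6%) in FL/FL, with overlapping intervals, and 2.98% in ΔMAC and 6.69% in FL/FL after thinning. The 3 highest cells had 7, 5 and 5 UMIs in ΔMAC and 15, 13 and 11 UMIs in FL/FL. Under the other settings the ratio lay between 0.413 and 0.58. Of the 2 members measured there 1 was at least 2-fold lower, beside 4.68% of 8566 genes, while 1.33% were at least 2-fold higher.

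Il10, at chr1:131019845-131024974 on the plus strand, was detected in 23 ΔMAC cells and 56 FL/FL cells. Its protein limits antigen presentation and cytokine release by macrophages. CD8 T-like cells outside the naive-like class had 12 UMIs in 3 of 403 ΔMAC cells (0.744%) and 53 UMIs in 11 of 486 FL/FL cells (2.26%), a ratio of 0.296 (0.144 to 0.562). In ΔMAC 1 cell held 10 of the 12 UMIs, and without the highest cell of each library 2 UMIs in ΔMAC and 35 in FL/FL remained, a ratio of 0.0742. The ratio was 0.565 as a mean of single-cell CPM and 0.686 in thinned cells, neither of them 2-fold lower. Naive-like CD8 T-like cells were at 0 of 664 in ΔMAC, which at the 3-count floor allows up to 0.452%, and at 1 of 450 (0.222%) in FL/FL.

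The make-up of this CD8 class also differed, with 133 cells (33%) in ΔMAC and 298 (61.3%) in FL/FL lying in the graph cluster of most NKT-like cells, and 226 (56.1%) in ΔMAC and 122 (25.1%) in FL/FL in the cluster of naive-like CD8 T-like cells. Its part in the Il10 value was not tested. Of the 6 members measured in the class, 0 were at least 2-fold higher and Il4, Il17a and Il10 were at least 2-fold lower, beside 1.55% and 5.71% of 9224 genes.

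CD4-lineage classes gave the same direction for Il10. Regulatory T-like cells, all with Foxp3, had 0 UMIs in 21 ΔMAC cells, which at the 3-count floor allows a share of up to 14.3%, and 29 UMIs in 9 of 53 FL/FL cells (17%). The exact intervals of these shares, 0 to 16.1% in ΔMAC and 8.07% to 29.8% in FL/FL, overlap. The ratio was at most 0.222 with ΔMAC set to 3 counts. The other CD4 T-like cells had 1 UMI in ΔMAC and 29 UMIs in 8 of 132 FL/FL cells (6.06%), a ratio of 0.0748 (0.00183 to 0.451). Of the 4 members measured in the other CD4 T-like class, Il17a was 2-fold higher and Il4, Ifng and Il10 were 2-fold lower, beside 2.97% and 5.98% of 5482 genes. Kupffer-like cells, the resident macrophages of the liver, had 2 UMIs in ΔMAC and 1 in FL/FL at median depths of 1067 and 1068 UMIs, which sets no order. Plasma-like cells went the other way, with 12 Il10 UMIs in 3 of 54 ΔMAC cells, 10 of them in 1 cell, and 0 in 33 FL/FL cells. Their ratio was at least 3.14 with FL/FL set to 3 counts. The remaining T-like cells had 3 Il10 UMIs in ΔMAC and 0 in FL/FL.

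The remaining classes had few members with at least 20 UMIs. In the remaining T-like cells 2 of 5 were 2-fold lower, beside 6.22% of genes in either direction, and in B-like cells 1 of 3 was lower, beside 4.35%. Conventional dendritic-like cells had 1 higher and 1 lower of 2, beside 8.23%, and plasmacytoid dendritic-like cells 1 higher of 1, beside 5.65%. In the naive-like T-like classes, CD8 and CD8-negative, 0 of 1 was 2-fold apart, beside 4.11% and 6.58%.

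**Figure D5:**
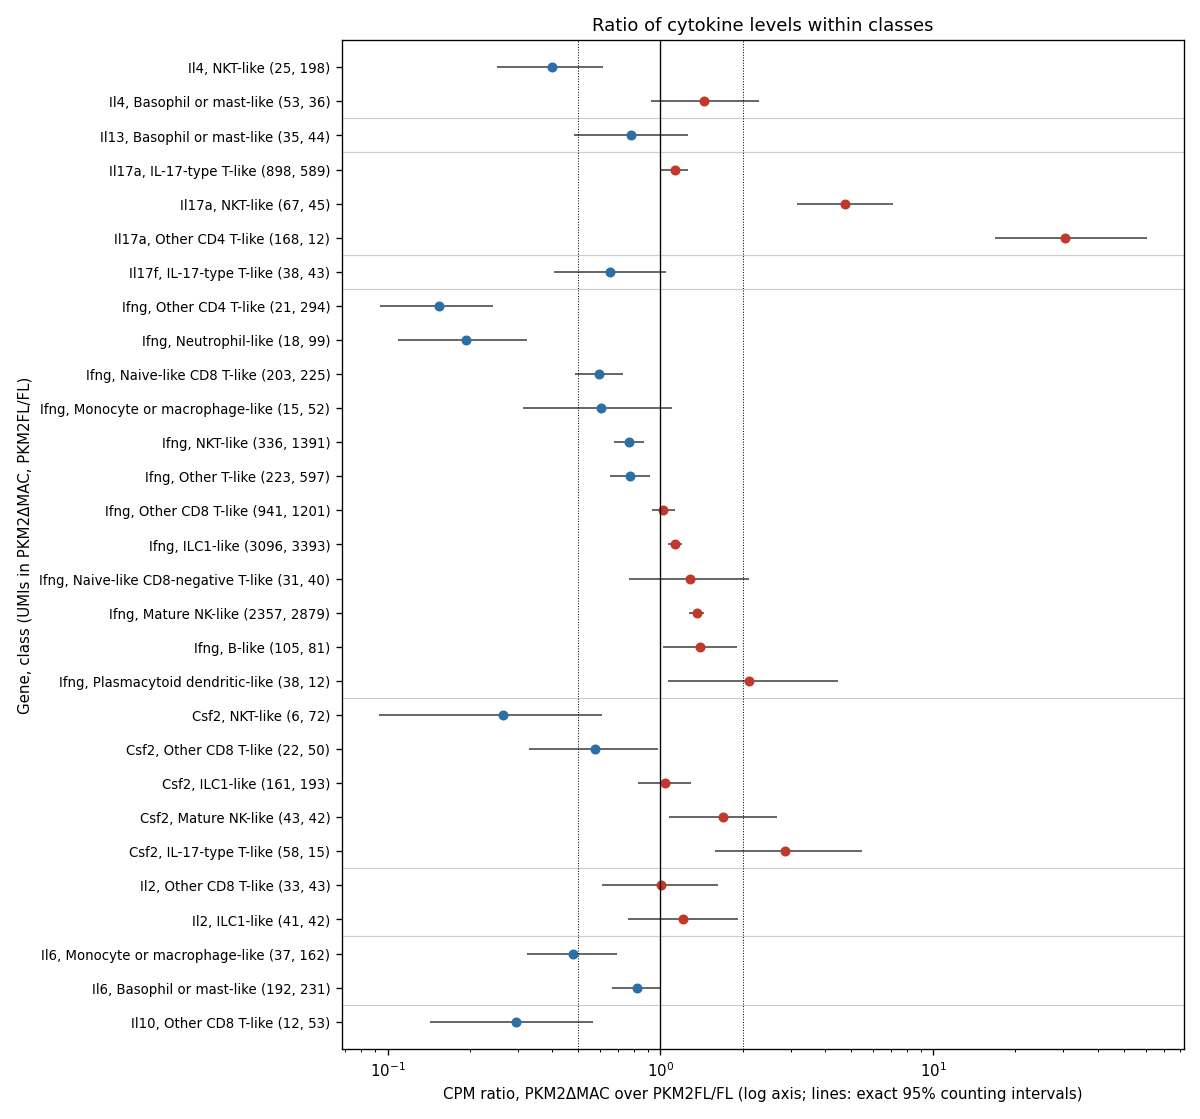
CPM ratio of ΔMAC over FL/FL on a log axis for the 29 cytokine and class pairs with at least 50 UMIs and none at 0, with exact 95% counting intervals and dotted lines at 2-fold. Csf2 lies at 2.86 in IL-17-type T-like cells and 0.265 in NKT-like cells, and Ifng lies between 1.03 and 1.36 in ILC1-like, mature NK-like and other CD8 T-like cells.

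Few receptor genes for these cytokines were 2-fold apart. Of 17 receptor genes, 12 were measured in NKT-like cells, with a median log2 ratio of -0.32, against -0.07 for all genes. Among the 12, 1 was at least 2-fold higher and 1 lower, beside 2.87% and 5.18% of 9260 genes. The lower one was Csf2ra, with 7 UMIs in ΔMAC and 45 in FL/FL, a ratio of 0.494 whose interval (0.188 to 1.1) spans 1. The higher one was Ifngr2, the signalling chain of the interferon gamma receptor, with 79 UMIs in ΔMAC and 66 in FL/FL, a ratio of 3.8 (2.71 to 5.36). It stood at 69.9 CPM in ΔMAC and 18.4 CPM in FL/FL NKT-like cells, and at 114 CPM in ΔMAC and 101.7 CPM in FL/FL IL-17-type T-like cells, whose cluster held 42.1% of ΔMAC and 14.9% of FL/FL NKT-like cells. The part of this make-up in the NKT-like ratio was not tested. Of the 14 receptor genes measured in monocyte or macrophage-like cells and the 11 measured in IL-17-type T-like cells, 0 were 2-fold apart. In the first class 1.33% of all genes were higher and 4.68% lower, and in the second 2.05% and 3.83%. Elsewhere, Csf2rb2 in neutrophil-like cells had 9 UMIs in ΔMAC and 61 in FL/FL, a ratio of 0.157 (0.0685 to 0.318). It was the only 1 of 14 receptor genes 2-fold lower there, beside 12.2% of all genes. Csf2rb2 was at 0.475 (0.328 to 0.675) in conventional dendritic-like cells, the only 1 of 14 apart, beside 8.23%. In plasmacytoid dendritic-like cells Il6st was at 0.386 (0.235 to 0.622), with 1 of 14 higher and 1 lower, beside 5.65%.

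Transcription factors that direct these cytokines were mostly near equality within classes. In IL-17-type T-like cells 0 of 20 were 2-fold apart, beside 2.05% of all genes higher and 3.83% lower. Maf there had 1187 UMIs in ΔMAC and 856 in FL/FL, a ratio of 1.03 (0.94 to 1.122). In mature NK-like cells Tbx21, the type 1 master factor that activates Ifng, had a ratio of 1.18 (1.06 to 1.3). Of 18 factors there 0 were 2-fold apart, beside 3.37% of all genes. In NKT-like cells 2 of 19 factors were at least 2-fold higher: Irf4 at 2.28 (1.46 to 3.52) and Ahr, which supports IL-17 and IL-22 production, at 2.05 (1.41 to 2.95), beside 2.87% of all genes in the class. In IL-17-type T-like cells, whose cluster held the unequal shares of NKT-like cells given above, Irf4 was at 46.3 CPM in ΔMAC and 50 CPM in FL/FL, and Ahr at 46.3 CPM in ΔMAC and 42.8 CPM in FL/FL. In the other CD8 T-like cells 3 of 19 were at least 2-fold lower, among them Maf, a driver of Il10, at 0.458 (0.389 to 0.536) and Prdm1 at 0.478 (0.327 to 0.686), beside 5.71% of all genes in the class. The unequal cluster make-up given with Il10, with 56.1% of ΔMAC and 25.1% of FL/FL cells in the naive-like cluster, applies here too.

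Among the other effector cytokines, Il22, which lies 231 kb from Ifng on chromosome 10 and is a partner of Il17a in type 17 lymphocytes, stood out by size. It had 199 UMIs in ΔMAC and 32 in FL/FL over all cells, a ratio of 7.66 (5.26 to 11.5), and 88 against 14 UMIs in IL-17-type T-like cells, a ratio of 4.65 (2.63 to 8.86). Of the 11 genes of that list measured in IL-17-type T-like cells, 1 was higher and 2 were lower, beside 2.05% and 3.83% of all genes. Lta was 1 of the lower ones, at 0.34 (0.18 to 0.62). Ccl20, a chemokine of the interleukin 17 target list, had 52 UMIs in ΔMAC and 0 in FL/FL IL-17-type T-like cells. For Il22 and Ccl20 the positive cells and the share of the highest cell were not counted. A few cells may thus hold most of these UMIs, and the other settings were not tried for them.

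Target genes were read in monocyte or macrophage-like cells. Il17ra had 216 UMIs in ΔMAC and 527 in FL/FL there, but its partner Il17rc was not among the 14 receptor genes measured in this class. The interleukin 17 list is thus given as levels of its genes, and a response to interleukin 17 was not tested. Of 8 measured interleukin 17 targets, 0 were higher and 5 lower, with a median log2 ratio of -1.07 against -0.05 for all genes, of which 4.68% were lower. Over all cells 2 of 9 were higher and 1 was lower, beside 2.83% and 2.16% of all genes. Lcn2, a neutrophil granule protein, had ratios of 2.76 over all cells and 2.54 in neutrophil-like cells. The 5 lower ones in monocyte or macrophage-like cells included the neutrophil chemokines Cxcl1, with 3 UMIs in ΔMAC and 227 in FL/FL, and Cxcl2 at 0.377 (0.353 to 0.403). The regulator Nfkbiz was another, at 0.474 (0.422 to 0.53). Il6 itself is on that list. Of 17 interferon gamma targets 2 were higher, the chemokines Cxcl9 at 2.58 (2.04 to 3.26) and Cxcl10 at 2.09 (1.9 to 2.29), and 2 were lower, 1 of them Ciita at 0.465 (0.275 to 0.751). These counts, like those of the lists below, stand beside 1.33% of all genes higher and 4.68% lower in the class. Of 8 interleukin 4 and 13 targets 1 was higher, Chil3 at 2.42 (2.31 to 2.55), and 1 was lower. Of 8 interleukin 6 and 10 targets 2 were lower, Saa3 at 0.32 (0.177 to 0.545) and Tnfaip3 at 0.499 (0.437 to 0.569). Tnf, from the list of other cytokines, had a ratio of 0.487 (0.399 to 0.592).

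The genes whose levels ran most alike with each cytokine were found over 32 points, 16 classes (50 or more cells per library) times 2 libraries, as the Pearson correlation of log2(CPM + 10). Points of 1 library share its depth, the 2 points of a class are not independent, and basophil or mast-like cells were too few to enter. Each leading value is the highest among 10010 candidate genes. The Il17a profile includes the ΔMAC point of other CD4 T-like cells at 567 CPM, where 1 cell held 159 of 168 UMIs. For Ifng the closest were Nkg7 (r = 0.94), Tbx21 (0.94) and Fasl (0.93), and for Il17a they were Il22 (0.90), Crmp1 (0.87) and Spock2 (0.85). Il17f ran closest with Adam12 (0.89), Csf2 with Eya2 (0.85), Il2 with Ubash3a (0.86) and Il6 with Nupr1 (0.89). Il4 ran closest with Acoxl (0.80), Il10 with Penk (0.77) and Il13 with Atp8a2 (0.61), the lowest of the leading values. The highest Il13 level among these points was 8.92 CPM, in FL/FL NKT-like cells, which is below the 10 CPM added before the logarithm.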

How the data were processed

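Both samples are droplet single-cell RNA sequencing libraries (10x Chromium 3′ kit, version 2 or 3 not settled by the labels). The deposited values are raw counts of UMIs per gene and barcode, and, per the file headers, Cell Ranger 6.0.0 wrote them, with build mm10 and Seurat 4.3.0 named per the submitters' processing notes. The lowest barcode of each library held 502 UMIs.

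A filter on genes (300 or more) and mitochondrial share (below 20%) took out 72 barcodes in ΔMAC and 64 in FL/FL. Scrublet in scanpy 1.11.5, run per library at an expected rate of 0.08, then removed 328 doublets (3.69%) in ΔMAC and 480 (4.80%) in FL/FL. Free RNA was not subtracted. A cell took the lineage with the highest share of detected markers, weighted by rarity, given at least 2 markers (3 for ILC2-like, with Il1rl1 or Il17rb) and a score 1.25 times the next. T-like cells were then split in the order IL-17-type, regulatory (with Foxp3), CD8, NKT-like, naive-like and CD4, so an NKT-like cell has no CD8 UMI. The members and gene lists were chosen with earlier results of these data known, and the gate was set with the data in view. Graph clusters (leidenalg 0.10.2, resolution 1, members left out) served as an alternative, each named after its most frequent gated class. Such a cluster can hold mostly cells of other gated classes, so its values describe a different set of cells. A class name comes from this rebuilt gate.

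UMIs were summed per class and library and given as CPM with exact Poisson intervals. Shares of positive cells have exact Clopper-Pearson intervals, and ratios exact conditional ones, all at 95%. A ratio needed 20 UMIs over both libraries, a call needed 2-fold, and a library at 0 was set to a floor of 3 counts. Genes of the lists were named at 50 UMIs or more and 2-fold, and for each member with at least 100 UMIs the genes most like it were ranked among genes with at least 200 UMIs. Positions are from GENCODE M21 on GRCm38, and upstream sequences from RefSeq on GRCm38.p6, with windows for 8 members. Ratio intervals were tested on simulated counts drawn independently for each gene and library, which is what the intervals assume. That test could not show how they hold where few cells carry most UMIs of a gene. A marker gene and the results that need it are not reported here.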

Additional observations from a re-analysis of the deposited data

Results flagged for a closer look

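Within single classes, 4 members were at least 2-fold higher in ΔMAC in some classes and at least 2-fold lower in others, with counting intervals clear of 1. The difference between classes was not tested, since each genotype has 1 library. Il17a had ratios of ΔMAC over FL/FL of 4.73 in NKT-like and 30.4 in other CD4 T-like cells, against 0.139 in B-like cells and at most 0.0836 in other CD8 T-like cells. Most UMIs behind the values in CD4, CD8 and B-like cells lay in 1 cell each, with 159 of 168 UMIs in ΔMAC, 32 of 47 in FL/FL and 21 of 31 in FL/FL. Csf2 had ratios of 2.86 in IL-17-type T-like cells, 0.265 in NKT-like cells and 0.358 in the remaining T-like cells. Under the gate with 1 more marker both lower values turned direction, to 1.08 in NKT-like and 1.22 in the remaining T-like cells, and with graph clusters the NKT-like value was 0.972.

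Ifng had a ratio of 2.11 in plasmacytoid dendritic-like cells, where 26 of 38 ΔMAC UMIs lay in 1 cell, and ratios of 0.303 in conventional dendritic-like, 0.193 in neutrophil-like and 0.155 in other CD4 T-like cells. In dendritic-like cells the Ifng counts, 4 UMIs in ΔMAC and 16 in FL/FL for the conventional class, are small. Il6 had a ratio of 2.83 in conventional dendritic-like cells, from 14 UMIs in ΔMAC and 6 in FL/FL, and 0.48 in monocyte or macrophage-like cells.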

How the results depend on the processing

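Of 162 alternative values for the level and the share of positive cells of each member in its leading class, 135 stayed within the counting interval of the reported value and 27 moved outside it. All 36 alternative values of Il4 and Il10, the leading-class results past 2-fold, kept their direction, and 30 stayed past 2-fold. Graph clusters gave no value for Il10, because no cluster was named after the other CD8 T-like class. Its dependence on that setting was thus not tested. Of 635 values in other classes 567 stayed, 61 moved and 7 turned the direction of a ratio past 2-fold. Ratios under 2-fold crossed 1 in another 22 values in the leading classes and 40 in other classes.

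With graph clusters in place of the gate, the level ratio was 1.57 for Il13, 0.939 for Il17a, 1.31 for Il17f, 1.05 for Ifng, 0.797 for Csf2 and 1.06 for Il6. With 1 more marker in the gate it was 1.28 for Il13, 0.716 for Il17a, 0.225 for Il17f, 1.0985 for Il6 and 0.0377 for Il10, and the ratio of Il17a positive shares was 0.727. As a mean of single-cell CPM it was 0.887 for Il17a, 1.03 for Ifng, 1.13 for Il6 and 0.565 for Il10, and as UMIs per cell 1.07 for both Ifng and Il6. Thinned to 1500 UMIs it was 0.922 for Il17a, 0.397 for Il17f, 1.06 for Ifng, 1.47 for Csf2, 0.72 for Il2 and 0.686 for Il10, and the ratio of Il2 positive shares was 0.758. The ratio of shares with at least 2 UMIs was 0.501 for Il2. Without the highest cell the Il10 ratio was 0.0742.

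The 7 values that turned a ratio past 2-fold were as follows. Graph clusters gave 1.03 for the Ifng level in other CD4 T-like cells, and 0.701 for the Il17a and 1.009 for the Csf2 positive share in NKT-like cells. The stricter gate gave 1.08 for the Csf2 level in NKT-like and 1.22 in the remaining T-like cells. Without the highest cell the Ifng ratio in plasmacytoid dendritic-like cells was 0.795, and with at least 2 UMIs the Il6 positive share in B-like cells had a ratio of 1.8. Removal of the IL-17 cluster from NKT-like cells, chosen after seeing the data, put the Il4 ratio at 0.506 and the Ifng ratio in that class, 0.768 as gated, at 1.08, and graph clusters put that Ifng ratio at 1.12. The causes of these shifts were not tested.

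No paired analysis was possible because each genotype has 1 library. Counts of Il10, Il13, Il2 and Il17f are small at this depth, most class values rest on few cells, and an unequal yield of cell types between libraries cannot be told apart from a difference between genotypes.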
